A study of Mus musculus with 40 samples.

Results

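The 58 genes described here encode chromatin remodelers and histone modifiers, and all 58 were found by symbol among the 21950 genes of the expression table. They are 14 subunits of the SWI/SNF remodeling complexes, 6 remodelers of the ISWI, CHD and HELLS families, 5 Polycomb proteins, 7 methyltransferases of H3K4 and H3K36, 6 proteins of H3K9 methylation and heterochromatin, 6 histone demethylases, 5 acetyltransferases, 8 deacetylases and CTCF. Members were listed by gene name, not by a cut on a measured value. The study asked why induced Tregs lose Foxp3 when they are stimulated again, and compared their transcriptome with that of other CD4+ T cells.

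RNA-seq was performed on mouse T cells in 8 groups of 3 libraries each. Conventional T cells (Tconvs) and thymus-derived Tregs (tTregs, called nTreg in the labels) were sequenced at rest and after activation. They had been sorted from the spleens of Foxp3-GFP reporter mice, on a C57BL/6 background and 2 to 4 months old. Induced Tregs (iTregs) had been made from naive CD4+ T cells of mice that were 6 weeks old, with 0.5 µg per ml anti-CD3, 1 µg per ml anti-CD28, 2 ng per ml TGF-β and 200 U per ml IL-2 over 4 days. They were sorted on a Foxp3 reporter and rested for 1 day in IL-2, and were sequenced as resting cells, after restimulation, and after restimulation with an ORAI inhibitor or with cyclosporine A (CsA). The label of the first of these names only an ORAI inhibitor, and CM-4620 is the compound the study design gives. For these libraries the durations of activation and restimulation are not given in the sources used here, and neither is whether replicates came from separate mice, so p-values measure the spread between these libraries, which may be partly technical.

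Chromatin remodelers use ATP to slide, evict or exchange nucleosomes. Histone modifiers write or erase marks that go with active genes (H3K4 methylation and histone acetylation), with transcribed bodies (H3K36 methylation) or with silencing (H3K27 methylation by Polycomb and H3K9 methylation bound by HP1 proteins). In T cells, EZH2 restrains effector genes and is needed by activated Tregs to keep their expression program, and several deacetylases and acetyltransferases are known partners or modifiers of Foxp3.

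Values are normalized counts, that is, read counts per gene divided by 1 size factor per library. Libraries held from 5256800 to 15685234 reads on genes, and the tTreg libraries were the shallowest, with group medians of 7582032 and 7131717. Differences were tested with limma on log2(normalized count + 1), and log2 fold changes are on that scale, which understates the change of low genes. A gene was called higher or lower where its Benjamini-Hochberg adjusted p was under 0.05 and its log2 fold change exceeded 0.5 in size. The largest rises and falls given in full were picked among called members whose libraries did not overlap between the groups. Statements of non-overlap for them therefore restate this choice and add no support. The share of all genes without overlap was not counted. All 58 members passed the filter of 10 normalized counts in 3 libraries over the 15 libraries of Tconvs, tTregs and resting iTregs, and 57 passed over the 12 iTreg libraries, where Hdac9 fell below it. Over the 15 libraries Hdac9 reached 10 normalized counts in tTregs alone. It was therefore tested only through the groups where it was high, and its calls add no support to its values. Foxp3, the defining factor of Tregs, was at 11.3, 10.3 and 9.65 normalized counts in resting Tconvs, 7218, 7767 and 7627 in resting tTregs, 1178, 1338 and 1324 in resting iTregs and 705, 695 and 731 in restimulated iTregs. Of 3 B cell markers, Ms4a1 was at 0 in all 8 groups, Cd79b was at 126, 122 and 125 normalized counts in resting tTregs against 9.26, 9.38 and 5.27 in resting Tconvs, and Cd79a was at 1.81, 14.3 and 7.97 against 22.6, 16.9 and 14.9. The 3 NK cell markers summed to 93.9 to 112 in resting Tconvs and to 0 in both tTreg groups, and the part of such cells in the differences below was not tested.

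**Figure D1:**
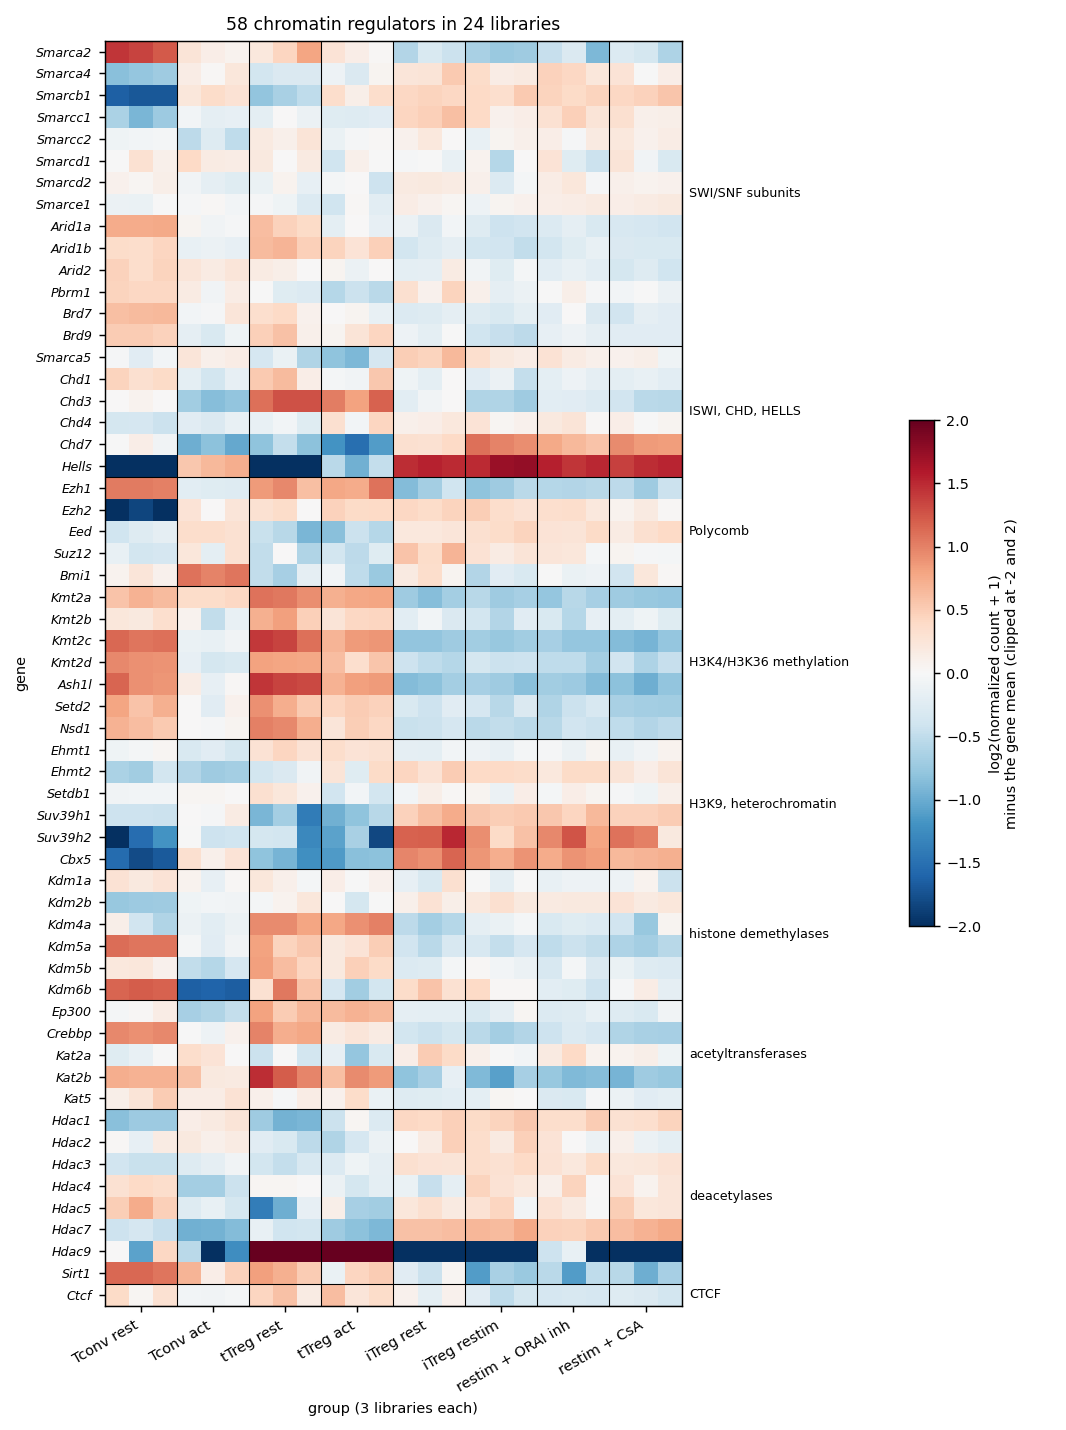
Each row is 1 of the 58 genes and each column 1 of the 24 libraries, in the order of the groups named below the plot. Color gives log2(normalized count + 1) minus the mean of the gene over all libraries, red for higher and blue for lower, and horizontal lines separate the roles. Hells, Cbx5 and Suv39h2 are low in resting Tconvs and high in all iTreg libraries, and Hdac9 is high in the 6 tTreg libraries. All 7 H3K4 and H3K36 methyltransferases are lower in resting iTregs than in resting Tconvs, and 6 of the 7 were called lower.

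Across the 8 group means the median member varied over a log2 range of 1.22, and 21 of the 58 varied by less than 1. Group means were highest in resting Tconvs for 16 members and in resting tTregs for 16, while activated Tconvs held the highest mean of 2. Activated tTregs held the highest mean of 4. Among iTregs it lay in resting cells for 9, restimulated cells for 7, the ORAI inhibitor group for 1 and the CsA group for 3. Such counts were not made over all genes. The widest range was that of Hdac9, from 0 to 89.0 normalized counts, followed by Hells, from 41.3 in resting Tconvs to 1254 in restimulated iTregs. At the other end, 7 members were called in none of the comparisons below. They were Ctcf, the insulator protein that anchors chromatin loops, Smarcd1, Smarcd2, Smarce1 and Arid2 of the SWI/SNF complexes, the H3K4 demethylase Kdm1a and the H3K9 methyltransferase Ehmt1. Group means of Ctcf ran from 513 to 880.3 normalized counts, those of Kdm1a from 193 to 254 and those of Smarce1 from 1463 to 1871.

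Activation of Tconvs moved 35 of the 58 members past the threshold, 11 higher and 24 lower, against 50.2% of the 11495 genes tested. The share of members called lower (24 of 58) stood beside 25.7% of all genes, and the share called higher (11 of 58) beside 24.5%. The median log2 fold change was -0.29 over the members and -0.04 over all genes tested. Hells, Ezh2, Smarcb1 and Cbx5 showed the largest rises. Of the 7 methyltransferases of H3K4 and H3K36, 5 were lower and none higher. In bulk samples, fewer cells that express a gene and less RNA per cell cannot be told apart.

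Hells, an SNF2-family remodeler needed for DNA methylation, had 49.4, 42.2 and 32.5 normalized counts in resting Tconvs and 572, 622 and 652 in activated Tconvs (log2 fold change 3.88, SE 0.17, adjusted p = 6.16e-11). The gene lies at chr19:38930915-38971051, plus strand, on GRCm38, the build of all positions given here, and its resting and activated libraries were far apart. Ezh2 (chr6:47530139-47595341, minus strand), the main H3K27 methyltransferase of Polycomb repressive complexes, went from 229, 271 and 231 to 1182, 982 and 1152 (log2 fold change 2.18, SE 0.10, adjusted p = 1.83e-10). Of its partners, Eed, which binds the methylated product, rose 1.53-fold (log2 fold change 0.61, SE 0.12, adjusted p = 5.09e-04), and Suz12, a core subunit, was not called (log2 fold change 0.39, adjusted p = 0.0497). Bmi1, of the Polycomb complex that ubiquitinates H2A, rose from 154, 173 and 156 to 312, 292 and 309 (log2 fold change 0.92, SE 0.17, adjusted p = 2.39e-04). Ezh1, the paralog of Ezh2 that prevailed in resting Tconvs, moved the other way, from 1469, 1468 and 1447 to 615, 608 and 601 (log2 fold change -1.26, SE 0.12, adjusted p = 3.95e-07). All 4 called Polycomb genes had groups that did not overlap, which held for 50 of the 58 members, called or not. The share over all genes was not counted, so nothing is read from this. Of the other remodelers, Chd7, Chd3 and Chd1 were lower (log2 fold changes -0.96 to -0.63), while the NuRD ATPase Chd4 and the ISWI ATPase Smarca5 were not called.

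Of the 14 SWI/SNF genes, 3 were higher, 5 lower and 6 not called. Smarcb1, a core subunit, had 367, 352 and 354 normalized counts in resting and 1332, 1471 and 1399.5 in activated Tconvs (log2 fold change 1.97, SE 0.09, adjusted p = 9.07e-11). The ATPase Smarca4 rose from 775, 806 and 838 to 1530.0, 1409 and 1620.2 (log2 fold change 0.91, SE 0.10, adjusted p = 1.21e-06). The alternative ATPase Smarca2 fell from 1029.5, 979 and 899 to 459, 420.0 and 402 (log2 fold change -1.18, SE 0.13, adjusted p = 1.83e-06). The scaffold subunit Smarcc1 was the third to rise (log2 fold change 0.63), and the lower ones besides Smarca2 were Arid1a and Arid1b, the DNA-binding subunits of the BAF complex, with Brd7 and Brd9, bromodomain subunits of its PBAF and non-canonical forms (log2 fold changes -0.52 to -0.77).

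Among the H3K9 and heterochromatin genes, Cbx5, which encodes the HP1 protein that binds methylated H3K9, rose from 473, 399.6 and 432 to 1728, 1477 and 1667 normalized counts (log2 fold change 1.90, SE 0.12, adjusted p = 4.84e-09). Suv39h2, an H3K9 methyltransferase, was near the limit of detection, at 3.09, 4.69 and 6.14 and then 15.3, 11.2 and 11.3, where 3 reads are worth from 2.12 to 5.45 normalized counts (log2 fold change 1.29, SE 0.36, adjusted p = 0.00563). Its call was lost without replicate 1 of each group (log2 fold change 0.94, adjusted p = 0.136). Ehmt1, Ehmt2, Setdb1 and Suv39h1 were not called.

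Kdm6b (chr11:69398508-69413675, minus strand), a demethylase that removes the H3K27 mark, showed the largest fall of any member, from 442, 456 and 449 to 62.9, 63.8 and 62.3 (log2 fold change -2.81, SE 0.16, adjusted p = 1.43e-09). The 3 activated libraries were almost equal and far below the resting ones. Kmt2c, which methylates H3K4 at enhancers, fell from 1443, 1356 and 1386 to 591, 582 and 618 (log2 fold change -1.22, SE 0.09, adjusted p = 1.52e-08). Its paralog Kmt2d fell from 2953, 2855 and 2831 to 1354, 1192 and 1225 (log2 fold change -1.20, SE 0.08, adjusted p = 9.61e-09). Kdm5a, which erases H3K4 methylation, fell as well, from 2899, 2798 and 2813 to 1298, 1141 and 1276 (log2 fold change -1.20, SE 0.10, adjusted p = 1.10e-07). The resting and activated libraries of these 3 genes did not overlap. Kdm2b, a demethylase that recruits a Polycomb complex to CpG islands, was the 1 demethylase to rise (log2 fold change 0.66). The acetyltransferases Crebbp and Ep300 were lower (log2 fold changes -0.96 and -0.62), and Kat2a, Kat2b and Kat5 were not called.

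Of the 8 deacetylases, Hdac1 alone was called higher, from 1721, 1852 and 1853 to 3357, 3469.8 and 3656 normalized counts (log2 fold change 0.95, SE 0.10, adjusted p = 1.22e-06). Its paralog Hdac2 stayed between 106 and 136 in all 6 libraries. Hdac4, Hdac5, Hdac7, Hdac9 and Sirt1 were lower, and the 4 class IIa members among them, which shuttle between nucleus and cytoplasm, had log2 fold changes from -1.05 to -0.52. The call of Hdac9 rested on 3.09, 0.938 and 4.39 against 1.80, 0 and 0.708 normalized counts, groups that overlapped, and it was lost under 9 of the 13 alternative settings that tested it, and those of Hdac5 and Sirt1 were lost without replicate 2 of each group (adjusted p = 0.0997 and 0.080 with limma). Hdac7 fell below the fold threshold without replicate 2 (log2 fold change -0.48) and Arid1b without replicate 3 (-0.49).

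Transcript length moved with these calls. Of the 18 members with over 10000 exon bases, 15 were lower and 1 higher on Tconv activation, and of the 40 shorter members 9 were lower and 10 higher. Among all genes tested, 481 of 1100 longer genes and 2459 of 10323 shorter genes were lower. The trend of values with exon length was then removed from each library, an alternative chosen after this was seen. It kept 11 of the 11 higher and 13 of the 24 lower calls, with 12 members higher and 13 lower in all. The calls lost were those of Arid1a, Arid1b, Chd1, Ep300, Hdac4, Hdac5, Hdac7, Hdac9, Kdm5b, Nsd1 and Setd2. Kdm6b, Ezh1, Kmt2c, Kmt2d, Kdm5a and Smarca2 were still lower. What made longer genes lower was not tested.

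Proliferation markers also differed between these groups. The 12 markers summed to 3268 to 3445 normalized counts in resting Tconvs, 15696 to 16219.5 in activated Tconvs, 2604 to 3043 in resting tTregs, 5877 to 6548 in activated tTregs and 59128 to 60036 in resting iTregs. All 12 were called higher on Tconv activation, 11 on tTreg activation and 12 in iTregs against either resting cell, and on restimulation their median log2 fold change was -0.33. At rest, Ezh2 was higher in tTregs than in Tconvs while the marker sum was lower, and on Tconv activation both rose. The single markers went both ways at rest. In tTregs against Tconvs 2 of the 12 were called higher, 2 lower and 8 not called (median log2 fold change -0.17). The part of proliferation in the values of Ezh2, Hells, Cbx5 and Suv39h2 was not tested.

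In tTregs, activation called 10 members, 3 higher and 7 lower, against 21.9% of the genes tested, 11.9% higher and 10% lower, and the median log2 fold change was -0.20. With the length trend removed, 4 were higher and 1 lower, and of the 7 lower calls that of Kdm6b was kept. Hells rose from 47.2, 50.6 and 64.9 to 271, 202 and 283 normalized counts (log2 fold change 2.19, SE 0.17, adjusted p = 6.57e-07). Smarcb1 rose from 659, 732 and 806 to 1465, 1240.3 and 1451 (log2 fold change 0.92, SE 0.09, adjusted p = 4.15e-06). Hdac1 rose from 1873, 1595 and 1636 to 2284, 3153 and 2548 (log2 fold change 0.64, SE 0.10, adjusted p = 3.11e-04). The libraries of the 2 states did not overlap for any of these 3 genes. Kdm6b showed the largest fall, from 243, 410.0 and 293 to 156, 121 and 153 (log2 fold change -1.11, SE 0.16, adjusted p = 1.48e-04). The other 6 that fell were Crebbp, Arid1a, Chd7, Ash1l, Nsd1 and Hdac7, with log2 fold changes from -0.64 to -0.50. Chd7 is a remodeler of the CHD family found at enhancers, and Ash1l and Nsd1 methylate H3K36. Between 8 and 14 members were called when 1 replicate number was left out, and Hdac1, Chd7, Ash1l, Nsd1 and Hdac7 each lost the call in at least 1 of these fits.

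The 2 activation comparisons share no library. The 3 members higher in tTregs were among the 11 higher in Tconvs, and the 7 lower in tTregs were among the 24 lower in Tconvs, while no member was called in opposite directions. Over all genes tested, 920 of the 1366 higher in tTregs were also higher in Tconvs (67.3% of the tTreg and 32.7% of the Tconv calls), and 708 of the 1151 lower in tTregs were also lower in Tconvs (61.5% and 23.9%). Only 10 members stand on the tTreg side, so nothing particular to them is read from this. The difference itself was tested as an interaction, the log2 response of Tconvs minus that of tTregs. It called 23 members, 12 with the higher value in Tconvs and 11 with the lower, against 34.7% of the genes tested, 17% higher and 17.7% lower. With the length trend removed the split was 12 and 7, and 12 of the 12 higher and 7 of the 11 lower calls were kept.

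**Figure D2:**
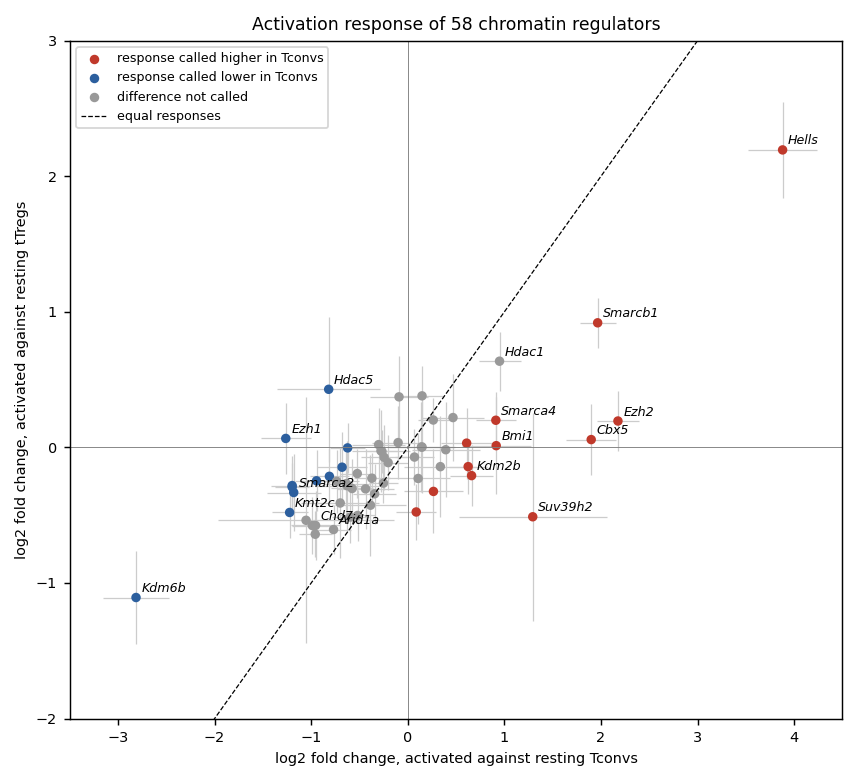
Each point is 1 of the 58 genes, with the log2 fold change on activation in Tconvs on the horizontal axis and in tTregs on the vertical axis, 95% confidence intervals as bars and a dashed line of equal responses. Red and blue mark responses that differed between the cell types, 12 higher and 11 lower in Tconvs. Ezh2, Cbx5 and Smarca4 lie far to the right of the line near a tTreg response of 0, and Kdm6b and Ezh1 lie to its left.

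Ezh2 gave the largest difference (log2 fold change 1.98, SE 0.15, adjusted p = 9.92e-08): resting tTregs already held 1198, 1249.6 and 977 normalized counts and activated tTregs 1345, 1267 and 1288, against the 1182, 982 and 1152 of activated Tconvs. Cbx5 rose in Tconvs and had 786, 721 and 588 in resting and 628, 770.1 and 777 in activated tTregs, groups that overlapped (log2 fold change 1.84, SE 0.17, adjusted p = 1.10e-06). Ezh1 fell in Tconvs and had 1285, 1387 and 1087 in resting and 1227, 1197 and 1515 in activated tTregs, which also overlapped (log2 fold change -1.33, SE 0.17, adjusted p = 2.70e-05). Hells and Kdm6b changed in the same direction in both cell types and more in Tconvs, with interactions of 1.69 and -1.71. Polycomb and H3K9 genes gave 3 higher interactions each and, between them, 1 lower. The H3K4 and H3K36 methyltransferases gave 2 lower (Kmt2d and Kmt2c) and none higher, and the other 5 lay between -0.49 and 0.01.

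At rest, tTregs differed from Tconvs in 18 members, 11 higher and 7 lower, against 38.6% of the genes tested, 20.5% higher and 18.2% lower, with a median log2 fold change of 0.04. With the length trend removed, 9 were higher and 11 lower. Hdac9 (chr12:34047580-34917095, minus strand), a class IIa deacetylase known to restrain Treg function, was almost absent from Tconvs (3.09, 0.938 and 4.39 normalized counts) and stood at 90.7, 92.1 and 84.3 in tTregs (log2 fold change 4.69, SE 0.42, adjusted p = 3.14e-07). Hdac9 passed the filter only through the tTreg libraries, so its adjusted p adds no support. Ezh2 was 4.66-fold higher in resting tTregs (log2 fold change 2.22, SE 0.10, adjusted p = 1.92e-10). The groups did not overlap in either gene. Chd3, an ATPase of the NuRD complex, had 1323, 1389 and 1331 in Tconvs and 2818, 3176 and 3202 in tTregs (log2 fold change 1.18, SE 0.09, adjusted p = 7.42e-08). Kdm4a, which demethylates H3K9 and H3K36, had 134, 94.7 and 80.7 and 238, 239 and 215 (log2 fold change 1.18, SE 0.16, adjusted p = 1.53e-05). For Chd3 and Kdm4a as well, every tTreg library was above every Tconv library. Smarcb1, Kdm2b, Cbx5, Smarcc1, Ep300 and Kat2b were also higher (log2 fold changes 0.52 to 1.03), as was Suv39h2 at 11.8, 11.7 and 5.69 against 3.09, 4.69 and 6.14, a call lost under 8 of the 13 alternative settings that tested it.

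Hdac5, the class IIa deacetylase, was lower in resting tTregs, at 146, 195 and 339 against 538, 641 and 532 normalized counts (log2 fold change -1.41, SE 0.25, adjusted p = 2.68e-04). Its 3 tTreg libraries were widely spread, and all lay below the Tconv libraries. Smarca2 (-0.86), Chd7 (-0.71), Pbrm1, a PBAF subunit (-0.59), Suv39h1 (-0.58), Bmi1 (-0.58) and Kdm6b (-0.54) were the other lower members, with log2 fold changes in parentheses. The 7 methyltransferases of H3K4 and H3K36 had log2 fold changes from -0.14 to 0.42 between these resting cells, below the fold threshold, and 4 of them (Kmt2a, Ash1l, Nsd1 and Kmt2b) had an adjusted p under 0.05.

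Resting iTregs differed from resting tTregs in 41 members. Of these 19 were higher and 22 lower, against 63.4% of the genes tested either way, 32.3% higher and 31.1% lower. The median log2 fold change was -0.19. All 7 methyltransferases of H3K4 and H3K36 were lower, 4 of the 6 H3K9 and heterochromatin genes were higher and none lower, and 5 of the 8 deacetylases were higher. With the length trend removed, 22 members were higher and 9 lower, and the 9 were Ash1l, Kmt2a, Kmt2c, Chd3, Ezh1, Hdac9, Kat2b, Kdm4a and Sirt1, so that 3 of the 7 methyltransferases kept the call. Of the 18 members with over 10000 exon bases 14 were lower, beside 661 of the 1100 such genes in all.

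**Figure D3:**
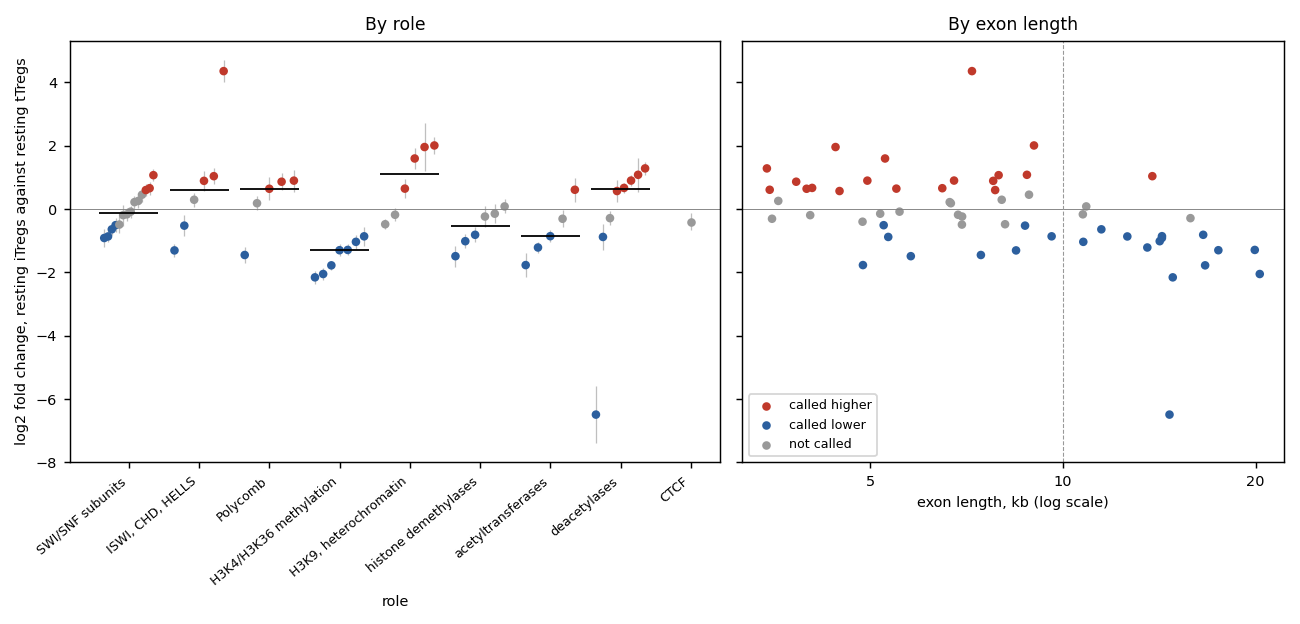
Points are the 58 genes, with the log2 fold change of resting iTregs against resting tTregs on the vertical axis, red where called higher, blue where called lower and gray where not called. The left panel groups them by role, with 95% confidence intervals and the median of each role as a black line, and the right panel places them by summed exon length on a log axis with a dashed line at 10 kb. The H3K4 and H3K36 group lies wholly below 0 at a median of -1.30, and 14 of the 18 genes longer than 10 kb were called lower.

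The methyltransferases were led by Ash1l, at 2050.1, 1945 and 1896 normalized counts in tTregs and 417, 429.8 and 473 in iTregs (log2 fold change -2.16, SE 0.10, adjusted p = 5.92e-11). Kmt2c went from 1723, 1664 and 1392 to 374, 376 and 396 (log2 fold change -2.05, SE 0.09, adjusted p = 2.76e-11). Kmt2a, the promoter-bound H3K4 methyltransferase, went from 2486, 2449 and 2254 to 715, 651 and 731 (log2 fold change -1.78, SE 0.07, adjusted p = 1.30e-11). The libraries of iTregs and tTregs did not overlap in any of these 3 genes. Nsd1, Kmt2d, Setd2 and Kmt2b followed (log2 fold changes -1.30 to -0.86). The acetyltransferase Kat2b had 509.8, 424 and 361 and 104, 114 and 163 (log2 fold change -1.77, SE 0.17, adjusted p = 2.92e-07), and Kdm4a, high in tTregs, had 85.4, 76.7 and 82.7 in iTregs (log2 fold change -1.49, SE 0.16, adjusted p = 5.69e-07). Ezh1 was also lower, at 391, 446 and 543 in iTregs (log2 fold change -1.45, SE 0.12, adjusted p = 5.06e-08). Chd3, which was high in tTregs, was at 1138, 1261 and 1321 (log2 fold change -1.31, SE 0.09, adjusted p = 9.17e-09). Among the SWI/SNF genes Smarca2, Arid1a, Arid1b and Brd7 were lower and Smarca4, Smarcb1 and Smarcc1 higher (log2 fold changes -0.91 to 1.07). With the length trend removed Arid1a was at 0.0472 and no longer lower.

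Hdac9 was at 0 in all 3 resting iTreg libraries and in 7 of the 9 restimulated ones. Against the 3 reads that are the smallest number told from absence, an average of 2.82 normalized counts per resting iTreg library, it was at least 31.6-fold lower than in resting tTregs. Ikzf2, a tTreg marker outside the list, was likewise far lower in iTregs (10382, 9218 and 8609.6 against 171, 141 and 189).

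In the other direction, Hells was at 1099, 1150.1 and 1115 normalized counts in resting iTregs against 47.2, 50.6 and 64.9 in resting tTregs (log2 fold change 4.36, SE 0.17, adjusted p = 9.20e-12). Cbx5 was at 2711, 2597 and 3101 against 786, 721 and 588 (log2 fold change 2.01, SE 0.12, adjusted p = 1.27e-09). Both genes were higher in every iTreg library than in any Tconv or tTreg library, activated ones included. Suv39h1 was at 1114, 1227 and 1357 against 428, 505 and 308 (log2 fold change 1.60, SE 0.15, adjusted p = 1.82e-07), and Suv39h2 at 35.8, 36.3 and 45.5 against 11.8, 11.7 and 5.69 (log2 fold change 1.96, SE 0.36, adjusted p = 1.65e-04). For Suv39h1, 14.6% of the exon bases overlap those of another gene, Gm14820. Ehmt2, which writes the lower methylation states of H3K9, was the fourth of this group to be higher (log2 fold change 0.65). Of the deacetylases, Hdac1 was at 4084, 4045 and 4286 against 1873, 1595 and 1636 (log2 fold change 1.29, SE 0.10, adjusted p = 2.61e-08), and Hdac5 (1.08), Hdac7 (0.90), Hdac3 (0.67) and Hdac2 (0.57) were higher too. Ezh2 was not called, at 1302, 1253 and 1319 in iTregs, with a 95% interval of the log2 fold change from -0.04 to 0.41.

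The letters TTTCCCGC, TTTCGCGC, TTTGCCGC and TTTGGCGC, forms of the site bound by E2F factors of the cell cycle, were searched on both strands in the 250 bases before RefSeq transcription starts on GRCm38.p6. Promoters were found for 46 of the 58 members, and 7 of their 61 promoters (11.5%) held a match, beside 3.32% of the 11683 promoters of genes tested and 1.86% of all 32851. The 7 genes were Hells, Suv39h1, Suz12, Kat2a, Arid1a, Brd7 and Smarcd1. The first 4 were among the 16 members with promoters that were higher in iTregs than in tTregs at rest. Arid1a and Brd7 were among the 16 lower, and Smarcd1 was among the 14 not called. On Tconv activation, 1 of 10 higher, 2 of 17 lower and 4 of 19 members not called held a match. For iTregs against resting Tconvs these were 3 of 14, 2 of 16 and 2 of 16. Windows of 30 bases are given for the 4 that were higher in iTregs than in tTregs. They run 5′ to 3′ on the strand of the gene, with the match, or its reverse complement, in capitals. They are shown because Hells was the member with the largest rise in 4 comparisons, and the others also hold a form of the site.
Hells chr19:38930917-38930946 (+): gaccaccgggtTTTCCCGCgaaagagaagc
Suv39h1 chrX:8074407-8074436 (-): ggaaggccggcGCGGCAAAcgtgggggccg
Suz12 chr11:79992876-79992905 (+): cgacccctcatTTTCCCGCgaattcagttc
Kat2a chr11:100712508-100712537 (-): aaggatgggaaGCGGCAAAggaagactacg
In the GENCODE annotation, the windows of Suz12 and Kat2a lie before the gene, that of Hells overlaps the first bases of an annotated exon, and that of Suv39h1 lies in an intron. A match of letters is not a bound site. No match was found in the windows of Ezh2, Cbx5 and Suv39h2.

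Against resting Tconvs, resting iTregs differed in 36 members, 16 higher and 20 lower, against 63.6% of the genes tested, 32.8% higher and 30.8% lower, and the median log2 fold change was -0.21. This comparison and the one with tTregs share the iTreg libraries, so their values are given side by side and no overlap is counted. Hells was 26.9-fold higher (log2 fold change 4.75, SE 0.17, adjusted p = 2.30e-12), Suv39h2 7.28-fold (log2 fold change 2.86, SE 0.36, adjusted p = 3.65e-06) and Cbx5 6.43-fold (log2 fold change 2.68, SE 0.12, adjusted p = 3.95e-11). Ezh2 (2.40) and Smarcb1 (2.10) came next, and Smarcc1 was at 556, 572 and 628 in iTregs (1.26). Hdac9 was 1 of the 20 lower calls. It rested on 3.09, 0.938 and 4.39 normalized counts in resting Tconvs against 0 in every resting iTreg library, values near the limit of detection. The largest falls among genes with counts above 100 in Tconvs were those of Kmt2c (-1.87), Ash1l (-1.78), Smarca2 (-1.77), Ezh1 (-1.68), Kdm5a (-1.50) and Kmt2d (-1.43). These 6 had between 254 and 1140.4 normalized counts in the iTreg libraries, with no overlap between groups. All of them but Ezh1 have over 10000 exon bases. Of the 18 such members 13 were called lower here, beside 549 of the 1100 such genes in all, and what made longer genes lower was not tested.

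Against activated Tconvs, resting iTregs differed in 18 members, 11 higher and 7 lower, against 41.6% of the genes tested, 22.9% higher and 18.7% lower, with a median log2 fold change of 0.12. Kdm6b, lowest in activated Tconvs, was at 254, 291 and 242 normalized counts in resting iTregs (log2 fold change 2.04, SE 0.16, adjusted p = 7.19e-08). Suv39h2 was 2.97-fold higher (log2 fold change 1.57, SE 0.36, adjusted p = 0.00177). The iTreg libraries were the higher ones for both. Hdac7, a class IIa deacetylase reported to bind Foxp3, was at 831, 836 and 848 against 286, 287 and 304 (log2 fold change 1.52, SE 0.09, adjusted p = 2.06e-09). Chd7 was at 784, 781 and 833 against 319, 355 and 309.9 (log2 fold change 1.28, SE 0.12, adjusted p = 3.80e-07), and Ehmt2 at 1036, 940.3 and 1088 against 509, 469 and 478 (log2 fold change 1.07, SE 0.14, adjusted p = 1.48e-05). For each of these 3 genes, too, the groups did not overlap. Hells, Cbx5, Chd3, Smarcc1, Suv39h1 and Smarcc2 were higher by 0.53 to 0.87 on the log2 scale.

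The lower members were led by Kmt2a, which activation of Tconvs did not call and which was at 1517, 1515 and 1571 in activated Tconvs (log2 fold change -1.14, SE 0.07, adjusted p = 4.64e-09). Bmi1 was at 165, 188 and 152 against 312, 292 and 309 (log2 fold change -0.86, SE 0.17, adjusted p = 5.48e-04). Kat2b, Ash1l, Kmt2c, Sirt1 and Smarca2 were also lower (log2 fold changes -0.86 to -0.59). Quantile normalization, which moved the median of all genes in this comparison by -0.13, called 9 higher and 9 lower, of which 9 of the 11 higher and 7 of the 7 lower were those above.

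Several members come in pairs of paralogs, which can be set against each other as normalized counts per kb of exon. Per kb, Ezh2 made up 15.7% ± 1.23 (SD, n = 3) of the sum of Ezh1 and Ezh2 in resting Tconvs, 66.8% ± 2.22 in activated Tconvs and 50.4% ± 0.507 in resting tTregs. It made up 75.9% ± 2.87 in resting iTregs. The order of these groups had no overlap between libraries, except that activated tTregs (52.6% ± 3.44) overlapped resting tTregs. Smarca4 made up 64.7% ± 2.44 of the ATPase pair Smarca2 and Smarca4 in resting Tconvs and 93.1% ± 0.903 in resting iTregs. Smarca2 has 14269 exon bases and Smarca4 6475. Division by kb does not remove a length trend that differs between libraries, and its part in the shares was not tested.

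**Figure D4:**
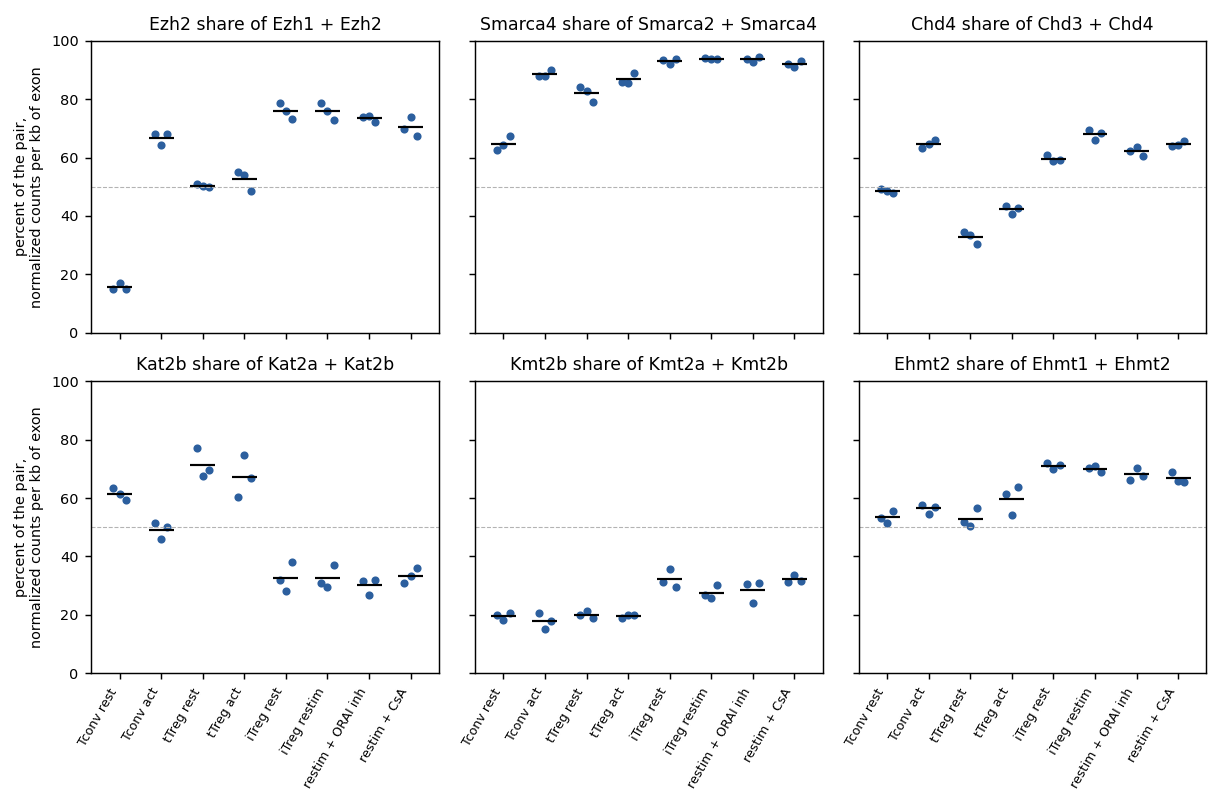
Each panel gives, for a pair of paralogs, the share of the second gene in the summed normalized counts per kb of exon, in percent on an axis from 0 to 100, with 1 point per library and a black line at the group mean. The dashed line marks 50%. Ezh2 and Smarca4 have their lowest shares in resting Tconvs and high shares in all iTreg groups, whereas the share of Kat2b is lower in the iTreg groups than in any Tconv or tTreg group.

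Kat2b, the paralog of the acetyltransferase Kat2a, made up 71.5% ± 5.03 of the pair in resting tTregs and 32.6% ± 5.06 in resting iTregs. Chd4 made up 32.7% ± 2.12 of the NuRD ATPases Chd3 and Chd4 in resting tTregs, 48.5% ± 0.811 in resting Tconvs and 59.5% ± 1.08 in resting iTregs. Ehmt2 made up 53.4% ± 2.07 of its pair with Ehmt1 in resting Tconvs and 71.0% ± 0.927 in resting iTregs. Smarcd2 stayed between 78.1% and 87.3% of its pair with Smarcd1 in all 24 libraries, where 12.7% of the exon bases of Smarcd1 overlap another gene. Hdac1 outweighed Hdac2 throughout, with the share of Hdac2 at most 5.22%. Per kb, Suv39h2 never exceeded 3.96% of its pair with Suv39h1.

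Restimulation of iTregs called 5 of the 57 members tested, 2 higher and 3 lower, against 12.8% of the genes tested, 6.7% higher and 6.13% lower. Chd7 (chr4:8690406-8867659, plus strand) rose from 784, 781 and 833 to 1352, 1248 and 1199 normalized counts (log2 fold change 0.66, SE 0.07, adjusted p = 3.95e-06). Hdac4 rose from 368, 293 and 356 to 553, 494 and 469.5 (log2 fold change 0.58, SE 0.12, adjusted p = 0.00179), and 22.4% of its exon bases overlap those of another gene, Gm26720. Both genes were higher in every restimulated library than in any resting one. Chd3 fell from 1138, 1261 and 1321 to 870.2, 869.6 and 806 (log2 fold change -0.55, SE 0.07, adjusted p = 3.86e-05). Bmi1 fell from 165, 188 and 152 to 96.7, 126 and 118 (log2 fold change -0.57, SE 0.15, adjusted p = 0.0104), and Sirt1, the NAD-dependent deacetylase, from 69.6, 60.5 and 84.2 to 37.3, 51.5 and 48.1 (log2 fold change -0.64, SE 0.21, adjusted p = 0.0307). These 3 were lower in every restimulated library. Chd7 was the 1 member called under all 14 alternative settings. Leaving out replicate 1, 2 or 3 of each group gave 3 calls each time: Bmi1 and Sirt1 were lost without replicate 1, Bmi1 and Hdac4 without replicate 2, and Chd3 and Sirt1 without replicate 3 (log2 fold changes -0.47, -0.51, -0.56, 0.49, -0.46 and -0.56 in that order). Hells, Ezh2, Cbx5 and the 7 methyltransferases of H3K4 and H3K36 were not called (log2 fold changes -0.18 to 0.16).

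**Figure D5:**
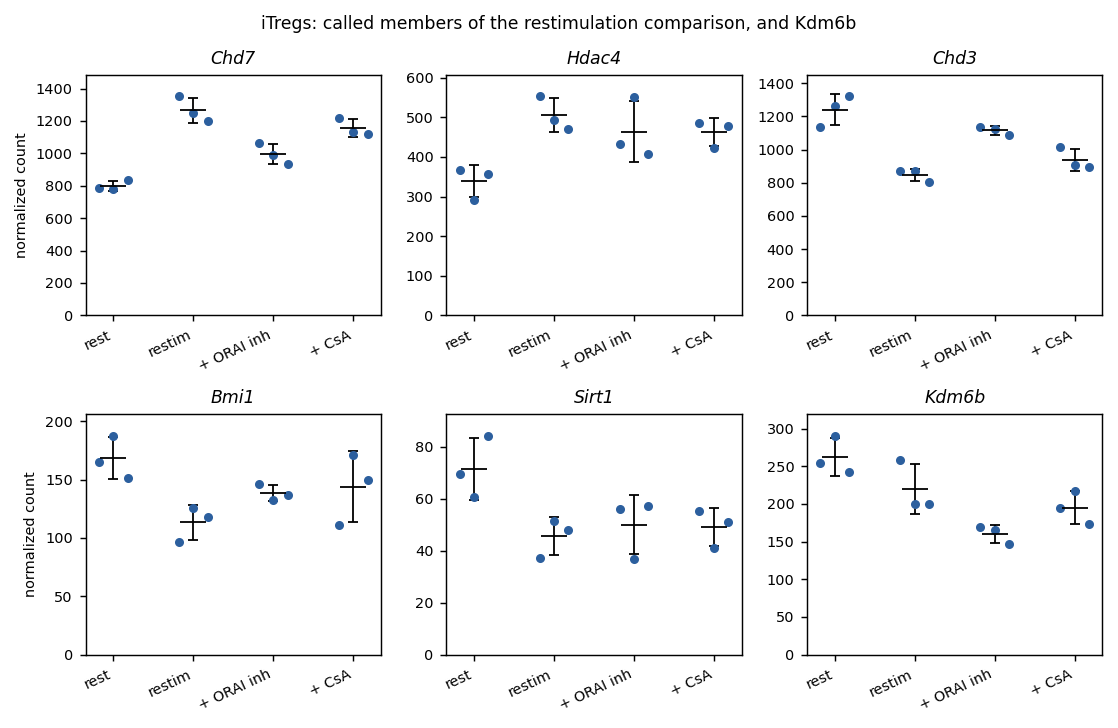
Each panel gives the normalized counts of 1 gene in the 12 iTreg libraries, from an axis start of 0, with points for libraries and bars for the mean and SD of 3. Chd7 and Hdac4 are higher and Chd3, Bmi1 and Sirt1 lower after restimulation than at rest, and under the ORAI inhibitor Chd7 lies between the resting and the restimulated libraries and Chd3 lies above the restimulated ones. Kdm6b is shown for its low values under the ORAI inhibitor.

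Neither inhibitor called a member against restimulation alone. With the ORAI inhibitor limma called 0 of 57, against 3.3% of the genes tested, with 9 at an unadjusted p under 0.05 (20.6% of the genes tested) and 0 calls by edgeR or DESeq2. With CsA it called 0, against 2.92%, with 12 at an unadjusted p under 0.05 (22.8% of the genes tested) and again 0 by the other tools. Without the fold threshold, 5 members had an adjusted p below 0.05 under the ORAI inhibitor. Chd3 was at 1139.5, 1122 and 1086 (log2 fold change 0.40, SE 0.07, adjusted p = 0.0026), above all 3 restimulated libraries and overlapping the resting ones. Chd7 was at 1063, 988 and 937 (log2 fold change -0.35, SE 0.07, adjusted p = 0.00481), below all of them and above all resting ones. Kdm6b was at 169, 165 and 147 against 258, 201 and 199.8 in restimulated and 254, 291 and 242 in resting iTregs (log2 fold change -0.44, SE 0.12, adjusted p = 0.0389), below both groups. Brd9 (0.31) and Crebbp (0.26) were the other 2. The restimulation comparison, which called Chd3 and Chd7, uses the same restimulated libraries. Part of an opposite change under an inhibitor can therefore come from those libraries alone.

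Under CsA, the 3 members with an adjusted p below 0.05 were Ezh2 at 1024, 1099 and 992 (log2 fold change -0.28, SE 0.07, adjusted p = 0.0182), Kdm5a (-0.24) and Brd9 (0.23). Chd3 was at 1015, 909 and 893 under CsA, also above all 3 restimulated libraries, but was not past the threshold (log2 fold change 0.14, SE 0.07, adjusted p = 0.238). The values of Chd7 under CsA, 1217, 1131 and 1122, overlapped those of restimulated iTregs, with a 95% interval of the log2 fold change from -0.27 to 0.01. Between the inhibitors, 0 members were called against 0.36% of the genes tested, with 8 at an unadjusted p under 0.05 (11.2% of the genes tested) and 0 by edgeR or DESeq2. The 1 member with an adjusted p below 0.05 was Crebbp (log2 fold change 0.30, adjusted p = 0.0493). For Chd3 and Chd7 the 95% intervals of the difference between the inhibitors ran from 0.10 to 0.40 (adjusted p = 0.159) and from -0.36 to -0.07 (adjusted p = 0.217). Both inhibitor comparisons use the same restimulated libraries.

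A wider list of 97 chromatin regulators that are not members, of which 94 were tested, was set beside the members. On Tconv activation 13 were higher and 34 lower, 50% of the list beside 50.2% of all genes tested. On tTreg activation 2 were higher and 10 lower, 12.8% beside 21.9%. In resting iTregs 26 were higher and 42 lower than in tTregs, 72.3% beside 63.4%, and 25 and 39 than in resting Tconvs, 68.1% beside 63.6%. Phf19, a Polycomb accessory protein, was the largest rise in iTregs against tTregs (log2 fold change 3.77, SE 0.36, adjusted p = 2.33e-07), and Nsd2, an H3K36 methyltransferase, rose beside it (log2 fold change 2.42, SE 0.13, adjusted p = 3.11e-10). Phf1, a paralog of Phf19, showed the largest fall (log2 fold change -2.46, SE 0.21, adjusted p = 5.64e-08), and 39.3% of its exon bases overlap those of another gene, Cuta. On restimulation 3 were higher and 4 lower, 7.45% beside 12.8%, led by Jarid2, a Polycomb cofactor (log2 fold change 0.88, SE 0.08, adjusted p = 1.75e-06), and Mbd2, a methyl-DNA reader of NuRD (log2 fold change -0.77, SE 0.09, adjusted p = 1.39e-05). Of these 94, the ORAI inhibitor called Kat6b lower (log2 fold change -0.51, SE 0.10, adjusted p = 0.00642), an acetyltransferase gene that was called higher on restimulation (0.69), a comparison that shares the restimulated libraries, and CsA called Phf1 higher (log2 fold change 0.82, SE 0.23, adjusted p = 0.0435).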

How the data were processed

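The authors trimmed reads with cutadapt 1.18, aligned them to mm10 (GRCm38) with STAR 2.5.3, counted them with RSEM 1.3.0 on GENCODE release 23 and tested them with DESeq2 1.26, from libraries made by a modified SMART-seq2 protocol. The deposited values are a signal, gene counts divided by 1 size factor per library, for which the tool is not given in the sources used here. Dividing by the smallest value above 0 gave whole reads in 100% of cases (tolerance 0.01), and these recovered reads were used for depth and for edgeR and DESeq2. The chromatin accessibility and CUT&Tag samples were not analysed here.

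log2(normalized count + 1) was fitted with limma 3.58.1 (R 4.3.3) with a variance trend, in 1 fit over 15 libraries (11495 genes tested) and 1 over the 12 iTreg libraries (11105), on genes with at least 10 normalized counts in 3 libraries, with Benjamini-Hochberg adjustment over all genes tested and thresholds of 0.05 and 0.5 from the study's methods. The code was tested on simulated data. Alternatives were size factors of each fit, quantile normalization, pseudocounts of 0.1 and 5, no filter, a filter of 100, a replicate block, omission of each replicate number in turn, edgeR 4.0.16 and DESeq2 1.42.0, and, chosen after seeing the data, thinning to equal depth and removal of a length trend. Replicates differed by 2.79 to 39.4 times counting noise, by 13.8 to 39.4 in tTreg pairs and by 3.13 to 9.94 in Tconv pairs. Groups of a fit share 1 estimate of the spread per gene, so p-values of comparisons with tTregs may understate the tTreg spread. Shares or ranges were given for some paralog pairs, and full values for up to 6 members with the largest rises and falls per comparison. The latter were taken from called members whose libraries did not overlap between the groups. Up to 2 others of the wider list were named each way. Members and lists were chosen with earlier results of these data known. Positions, exon lengths and overlaps came from GENCODE release 21, promoters from RefSeq. Floors of 3 reads cover counting error only. A marker of the lists is not reported here.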

Additional observations from a re-analysis of the deposited data

Results flagged for a closer look

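For 23 members the response to activation differed between Tconvs and tTregs by the interaction test. The log2 response of Tconvs minus that of tTregs was 1.98 for Ezh2, 1.84 for Cbx5, 1.81 for Suv39h2, 1.69 for Hells, 1.05 for Smarcb1, 0.90 for Bmi1, 0.87 for Kdm2b, 0.77 for Smarcc1, 0.71 for Smarca4, 0.59 for Smarca5, 0.58 for Eed and 0.56 for Setdb1. It was -1.71 for Kdm6b, -1.33 for Ezh1, -1.25 for Hdac5, -0.92 for Kdm5a, -0.90 for Kmt2d, -0.85 for Smarca2, -0.74 for Kmt2c, -0.70 for Hdac4, -0.62 for Ep300, -0.60 for Chd3 and -0.53 for Brd9. Leaving out 1 replicate number ended the call of Brd9, Smarca5, Eed, Bmi1, Setdb1, Suv39h2 or Hdac5, with 18 to 22 members called. The tTreg libraries were the shallowest, and the part of depth beyond the thinned fit was not tested.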

How the results depend on the processing

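Of 202 values of members that were called or named, 129 kept their direction and side of the threshold under all 14 settings and 73 did not. Over all settings, 2674 of 2815 recomputed values kept both, 135 fell below the threshold and 6 reversed. Removal of the length trend accounted for 40 of the former and 4 of the latter: Hdac4 in resting iTregs against resting Tconvs (0.0265 on the log2 scale), and in resting iTregs against resting tTregs Arid1a (0.0472), Kdm5b (0.20) and Ep300 (0.0228). It brought the members called on tTreg activation from 10 to 5. The other 2 reversals were Sirt1 without replicate 1, under the ORAI inhibitor (-0.11, in a range of -0.11 to 0.41 over the omissions) and under CsA (-0.12, in a range of -0.12 to 0.32), neither called. With 1 replicate number left out, members called ranged from 33 to 35 on Tconv activation, 8 to 14 on tTreg activation, 18 to 22 for the interaction, 15 to 18 for tTregs against Tconvs at rest, 37 to 37 for iTregs against resting Tconvs, 15 to 20 against activated Tconvs, 39 to 42 against tTregs, and 3 to 3 on restimulation, beside 5 with all libraries. Among iTreg and resting-cell comparisons, such fits ended the calls of Smarca2, Smarcc2, Sirt1 and Suv39h1 (iTregs against activated Tconvs), Hdac4, Chd4 and Kat5 (against resting Tconvs), Brd7, Chd1, Bmi1, Kat2a and Hdac2 (against tTregs), and Suv39h2, Kdm6b, Kat2b, Bmi1 and Suv39h1 (tTregs against Tconvs). Quantile normalization moved the median of all genes in the 3 iTreg comparisons by -0.14 against resting Tconvs, -0.13 against activated Tconvs and -0.12 against tTregs. Replicate numbers did not meet the rule for pairing, a correlation over 0.1 in every same-numbered pair. In the fit of 15 libraries the mean correlation of same-numbered deviations was -0.0070 over 30 pairs, 6 of them over 0.1. In the 12 iTreg libraries it was 0.152 over 18 pairs, 10 of them over 0.1, beside -0.075 for other numbers, and 10 of the 12 were nearest to their own number, a hint of shared deviation that the labels do not explain. There the block brought genes with an adjusted p under 0.05 from 869 to 1169 under the ORAI inhibitor and from 945 to 1336 under CsA, with 0 members past both thresholds in either fit. With the replicate block, Suv39h2 in tTregs against Tconvs at rest was the 1 call lost (17 members in place of 18). Genes near 3 reads, such as Hdac9 in Tconvs and Suv39h2, are limited by depth. The cause of the other changes was not tested.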
